A study of Mus musculus with 18 samples.

Results

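Kupffer cells are the macrophages that live in the sinusoids of the liver, where they take up bacteria, immune complexes, lipoproteins and aged red cells from portal blood. Their marker genes were followed here in the livers of mice under caloric restriction or one of 3 compounds. The markers were chosen by name: C1qa, C1qb, C1qc, Cd5l, Clec4f, Vsig4, Csf1r, Adgre1 and Marco. Of these 9 genes, 8 stand under their own symbols among the 12019 genes of the authors' deposited table. Adgre1, which encodes the F4/80 antigen, stands there under its older symbol Emr1 (matched through RefSeq synonyms) and is given beside the 8.

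The labels list 18 libraries of whole liver from C57BL/6J mice: 6 from ad libitum fed mice (control), 3 from mice kept on 30% caloric restriction, and 3 each from mice given TM5614 at 20 mg/kg/day, rapamycin at 42 mg/kg/day and metformin at 37.5 mg/kg/day, the compounds being given in chow. All 5 groups, the control among them, were followed for 8 weeks from 21 weeks of age. TM5614 is an inhibitor of the protease inhibitor PAI-1, rapamycin inhibits the kinase mTOR, and metformin, a biguanide, lowers blood glucose. The livers had been perfused with saline before the RNA was isolated from minced tissue, so the values are those of all liver cells together. In such bulk RNA, fewer cells of a type and less RNA per cell cannot be told apart. Values are group means in normalized counts, that is, gene counts divided by a size factor for each library, and log2 fold changes and adjusted p-values against the control. No value per library could be used, so no SD is given, only the authors' adjusted p-values carry the spread between libraries, and the depth of each library is unknown. The smallest control means above 0, between 0.315 and 0.350, are as large as those of the groups of 3 libraries (0.299 to 0.398), although the labels list 6 control libraries. Which libraries stand behind the control mean is therefore not known. The hepatocyte gene Alb had group means of 557685 to 858112 normalized counts per the authors' deposited table, and all 8 markers and Emr1 were above 0 in every group.

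The markers differ in the role of their products. C1qa, C1qb and C1qc encode the chains of C1q, the recognition molecule of the classical complement pathway, which macrophages make rather than hepatocytes. Cd5l encodes a secreted scavenger protein also known as AIM. Clec4f, a lectin restricted to Kupffer cells in mice, Vsig4, a receptor for C3 fragments on particles, Marco, a scavenger receptor with a collagen-like stalk, and Emr1 encode surface proteins. Csf1r encodes the receptor for CSF1 and IL-34, the growth factors on which Kupffer cells depend.

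The control regions of the markers were examined because Sfpi1, which encodes PU.1 (now Spi1), the ETS factor of the macrophage lineage, fell together with markers under caloric restriction, as given further on. The 250 bases before the start of transcription are shown for 2 markers that fell (C1qb and Cd5l), for Vsig4, which did not pass, and for Marco, the marker with the largest difference. They come from RefSeq (GRCm38.p6), lie outside the annotated transcripts and are written 5′ to 3′ on the strand of the gene. Capitals mark a core of the PU.1 site, GAGGAA, or its complement, TTCCTC.
C1qb: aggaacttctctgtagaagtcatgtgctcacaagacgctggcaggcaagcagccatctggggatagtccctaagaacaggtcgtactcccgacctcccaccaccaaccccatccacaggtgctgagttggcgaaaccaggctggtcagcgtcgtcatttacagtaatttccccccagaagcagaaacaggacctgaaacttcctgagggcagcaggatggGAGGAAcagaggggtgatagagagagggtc
Cd5l: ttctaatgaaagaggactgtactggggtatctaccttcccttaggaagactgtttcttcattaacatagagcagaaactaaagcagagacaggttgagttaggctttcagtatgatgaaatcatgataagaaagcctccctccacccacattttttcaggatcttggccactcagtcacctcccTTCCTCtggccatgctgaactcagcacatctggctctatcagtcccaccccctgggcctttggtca
Vsig4: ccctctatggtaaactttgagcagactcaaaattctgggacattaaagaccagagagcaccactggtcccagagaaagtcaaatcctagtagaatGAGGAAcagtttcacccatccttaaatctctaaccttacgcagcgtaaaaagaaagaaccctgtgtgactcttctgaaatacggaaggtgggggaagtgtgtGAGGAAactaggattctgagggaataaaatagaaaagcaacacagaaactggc
Marco: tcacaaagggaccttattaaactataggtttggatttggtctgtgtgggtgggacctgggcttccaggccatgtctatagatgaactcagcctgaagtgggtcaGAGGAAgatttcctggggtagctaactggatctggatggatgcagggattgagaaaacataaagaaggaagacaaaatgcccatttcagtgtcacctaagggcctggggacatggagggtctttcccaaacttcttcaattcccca
These stretches lie at chr4:136886201-136886450 (C1qb, minus strand), chr3:87357631-87357880 (Cd5l, plus strand), chrX:96293439-96293688 (Vsig4, minus strand) and chr1:120505025-120505274 (Marco, minus strand). The core GAGGAA, on either strand, was found in 5 of the 6 windows searched (C1qb, C1qc, Cd5l, Vsig4 and Marco, but not Clec4f; the windows of C1qc and Clec4f lie inside the annotated gene for 151 and 71 of their bases), while 23.3% of all 32851 RefSeq windows of this length hold it. It begins 30 bases before the start of C1qb and 66 before that of Cd5l, where it lies on the opposite strand. In Marco it begins 146 bases before the start, and Vsig4 holds it at 155 and at 53. The MAF half-site TGCTGAC, which does not overlap that core, was found in none of the 6 windows and is held by 3.81% of all. C1qa, Csf1r and Emr1 were not searched. A match of letters is a description of the window and shows no binding. The core was looked for after the value of Sfpi1, itself a macrophage gene, had been seen. Whether PU.1 has a part in the lower markers was not tested.

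Under caloric restriction the transcripts of C1q and of Cd5l were lower than in freely fed mice. Of the 8 markers 4 fell (C1qa, C1qb, C1qc and Cd5l), none rose, 3 did not pass and Marco had no adjusted p. Of all 11760 genes with an adjusted p in that comparison, 9.24% fell and 9.74% rose by the same rule, an adjusted p under 0.05 per the authors' deposited table. All 8 fold changes were below 0 (median -0.86 on the log2 scale), against a median of 0.01 over the 11201 genes whose mean over the 5 groups was at least 10. The spread of these genes is given by their 10th and 90th percentiles, -0.59 and 0.58. The markers had been chosen with results of these data known, so their direction under caloric restriction is a description of the list and no independent support for it.

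**Figure D1:**
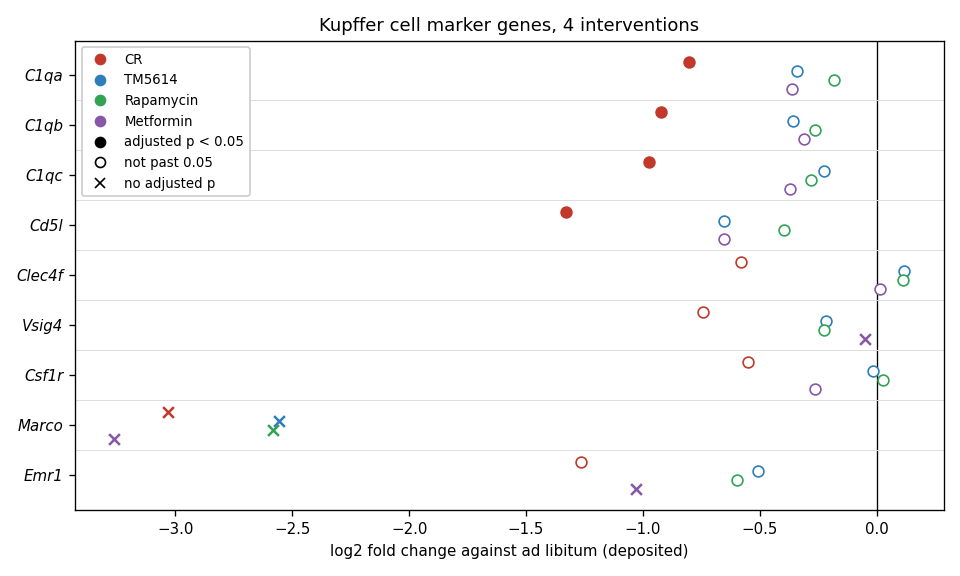
Deposited log2 fold changes against the ad libitum control (x axis) of the 8 markers and Emr1 (rows), in colour by intervention; filled points have an adjusted p under 0.05, open points do not, and crosses have none. The filled points are those of C1qa, C1qb, C1qc and Cd5l under caloric restriction, and all crosses of Marco lie below -2.5.

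The C1q genes moved by like amounts. According to the authors' deposited table, C1qa had 225 normalized counts in the control, 198 under rapamycin, 178 under TM5614, 175 under metformin and 129 under caloric restriction. Its log2 fold change under caloric restriction was -0.80 (adjusted p = 0.00714) per the authors' deposited table, which leaves 57.5% of the control mean. C1qb had 193 in the control and 102 under caloric restriction per the authors' deposited table (-0.92, adjusted p = 0.0484), with 151 under TM5614, 161 under rapamycin and 156 under metformin. For C1qc the authors' deposited table gives 199 in the control and 102 under caloric restriction (-0.97, adjusted p = 0.00375), with 171 for TM5614, 164 for rapamycin and 154 for metformin. All 3 genes were highest in the control and lowest under caloric restriction, with the compounds in between. Under the compounds the changes of the 3 genes, from -0.18 for C1qa under rapamycin to -0.37 for C1qc under metformin per the authors' deposited table, did not pass.

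The C1q genes are neighbours. They lie on the minus strand of chromosome 4 (mm10, GENCODE vM21), C1qb from 136880129 to 136886187, C1qc from 136889804 to 136893065 and C1qa from 136895917 to 136898803, all within 18.7 kb. Per kilobase of exon, the scale on which levels of different genes can be compared, their levels in the control were 216 for C1qa, 177 for C1qb and 103 for C1qc. The ratio of C1qb to C1qa per kilobase was 0.819 in the control and 0.754 under caloric restriction, and ranged up to 0.848 under metformin. That of C1qc to C1qa was 0.477 in the control, 0.424 under caloric restriction and 0.517 under TM5614. The group means themselves differed by up to 1.96-fold (C1qc). No test of the ratios was possible without values per library.

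Cd5l had the largest change among the markers that passed. According to the authors' deposited table, its mean was 435 normalized counts in the control, 331 under rapamycin, 277 under TM5614, 277 under metformin and 173 under caloric restriction. The log2 fold change under caloric restriction was -1.33 (adjusted p = 0.0402) per the authors' deposited table. Under TM5614 (-0.65, adjusted p = 0.516), metformin (-0.65, adjusted p = 0.954) and rapamycin (-0.40, adjusted p = 0.847) it did not pass per the authors' deposited table. The gene lies on chromosome 3 from 87357881 to 87371073. Its control level per kilobase, 214, was close to that of C1qa.

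Among the surface proteins, Clec4f and Vsig4 had values just short of the threshold under caloric restriction. Clec4f (chromosome 6 from 83644542 to 83656187) had 343 normalized counts in the control, 372 under TM5614, 371 under rapamycin, 347 under metformin and 229 under caloric restriction per the authors' deposited table. Its log2 fold change under caloric restriction was -0.58 (adjusted p = 0.0593) per the authors' deposited table, and those under the compounds lay between 0.01 and 0.12 (adjusted p from 0.843 to 0.998). Vsig4 (chromosome X from 96247203 to 96293438) had 75.1 in the control, 72.8 under metformin, 64.7 under TM5614, 64.4 under rapamycin and 45.2 under caloric restriction per the authors' deposited table. Its log2 fold change under caloric restriction was -0.74 (adjusted p = 0.0588) per the authors' deposited table. Both genes had their lowest mean under caloric restriction, and Clec4f, unlike the C1q genes and Cd5l, had compound means of 101% to 109% of the control mean.

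Csf1r and Emr1 did not pass in any comparison with an adjusted p. According to the authors' deposited table, Csf1r (chromosome 18 from 61100598 to 61132149) had 185 normalized counts in the control, 189 under rapamycin, 184 under TM5614, 155 under metformin and 127 under caloric restriction. The log2 fold change under caloric restriction was -0.55 (adjusted p = 0.189) per the authors' deposited table, the smallest of the 8. Emr1 (chromosome 17 from 57358691 to 57483527) had 97.6 in the control, 68.8 under TM5614, 64.5 under rapamycin, 48.0 under metformin and 40.6 under caloric restriction per the authors' deposited table. Its log2 fold change of -1.27 under caloric restriction (adjusted p = 0.176, per the authors' deposited table) is close in size to that of Cd5l, which passed.

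**Figure D2:**
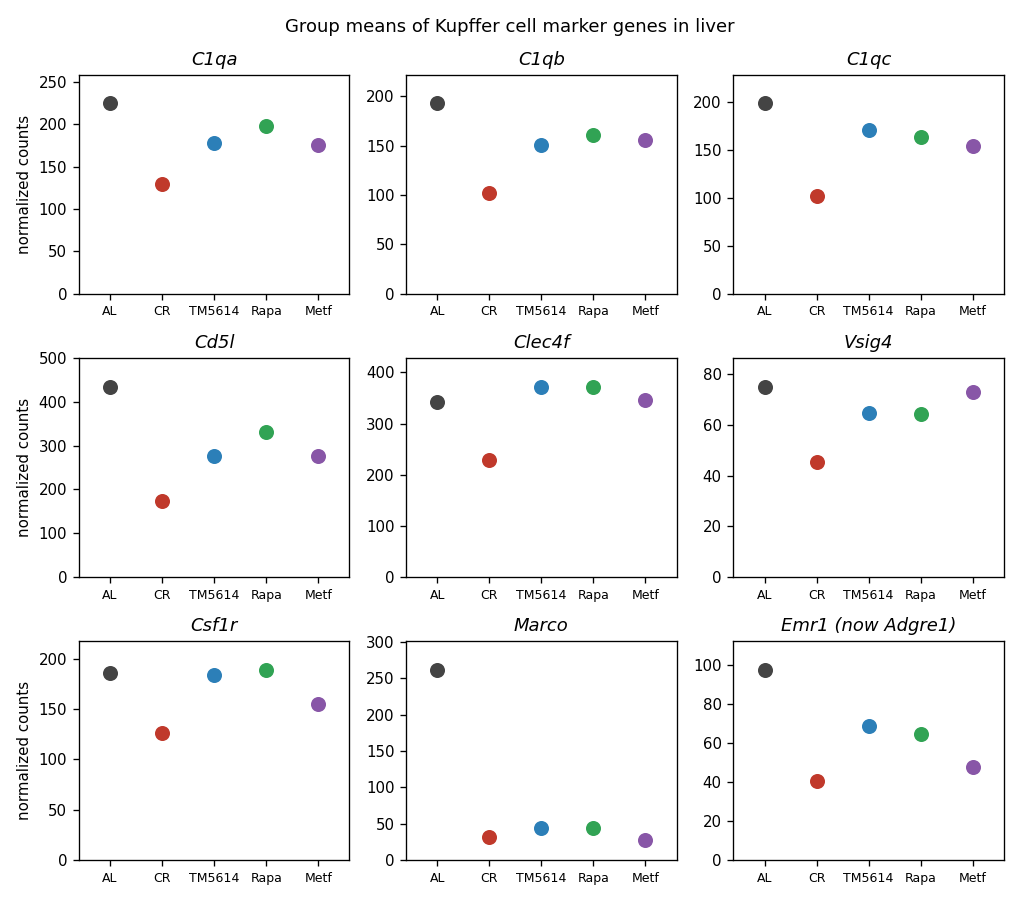
Group means in normalized counts (y axis, from 0) of the 8 markers and Emr1 in the 5 groups (x axis; AL is ad libitum, CR caloric restriction, Rapa rapamycin, Metf metformin), each point being 1 group mean of the authors' deposited table with no error available. Caloric restriction is the lowest group in every panel except that of Marco, where metformin (27.3) is lowest and the control (261) stands far above the others.

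Marco had another pattern than the rest. The authors' deposited table gives it 261 normalized counts in the control, 44.5 under TM5614, 43.6 under rapamycin, 32.0 under caloric restriction and 27.3 under metformin. The log2 fold changes per the authors' deposited table were -2.56, -2.58, -3.03 and -3.26 in that order, and none has an adjusted p. The control was thus 5.88 times the highest treated mean, while for C1qa, C1qb, C1qc, Cd5l and Vsig4 it was 1.03 to 1.32 times that mean, and for Clec4f and Csf1r it was below it. Of the 7345 genes with at least the mean of Marco over the 5 groups, 10 have no adjusted p in any of the 4 comparisons. DESeq2 leaves it out where a gene has an outlying count in 1 library or a low mean, and the table does not say which held here. Genes with a mean as low as 3.87 (caloric restriction), 12.5 (TM5614), 16.5 (rapamycin) or 77.2 (metformin) do have an adjusted p, and the mean of Marco is 81.8. The gene lies on chromosome 1 from 120474538 to 120505024.

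A control mean at least 4 times each of the 4 treated means was found for 4 of 11201 genes (0.0357%). The others beside Marco were Amy2a5, Ctrb1 and Cela2a, which encode digestive enzymes of the pancreas. Amy2a5 had 183 and Ctrb1 75.6 normalized counts in the control and both are listed at 0 in the other groups of the authors' deposited table, where Cela2a had 75.4 in the control and 2.49 to 4.27 elsewhere. Amy2a5 and Ctrb1, like Marco, have no adjusted p in any of the 4 comparisons. Cela2a passed under caloric restriction (adjusted p = 0.00305) and TM5614 (adjusted p = 0.00687) per the authors' deposited table, and has none under rapamycin and metformin. Whether the level of Marco goes with these genes in single control libraries was not tested. The control mean of Marco rests on libraries that cannot be seen apart, so its fold changes are values with no measure of error.

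**Figure D3:**
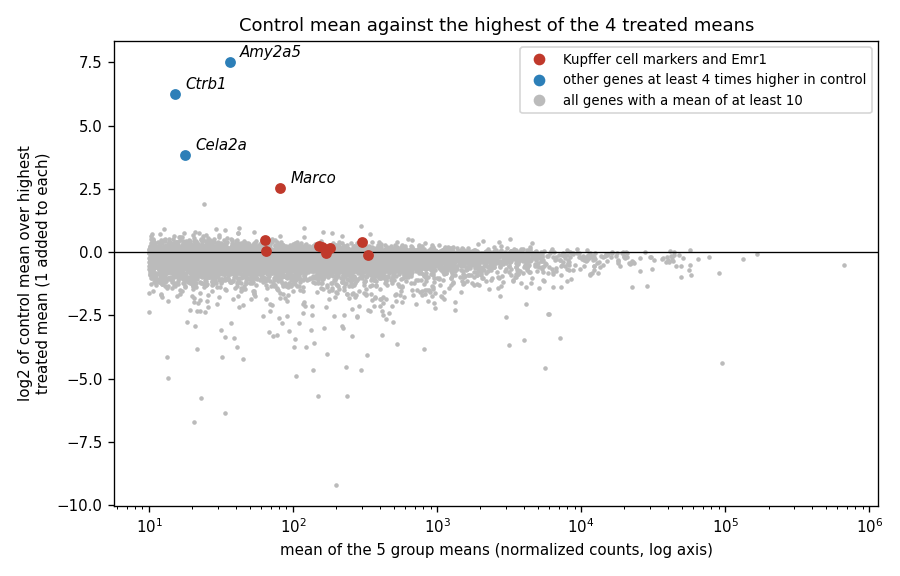
Log2 ratio of the control mean to the highest of the 4 treated means, 1 being added to each (y axis), against the mean of the 5 group means (x axis, log scale) for 11201 genes with a mean of at least 10 (grey), the 8 markers and Emr1 (red) and the other genes with a control at least 4 times each treated mean (blue). Marco stands with 3 pancreatic genes above the cloud, and the other red points lie within it; the cloud lies mostly below 0 because the highest of 4 means is taken.

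Across the 5 groups, 7 of the 8 markers had their lowest mean under caloric restriction and 6 had their highest in the control. Among those 11201 genes, 30.3% were lowest under caloric restriction and 15.0% highest in the control. Both held for 5 markers (C1qa, C1qb, C1qc, Cd5l and Vsig4), and for 6.95% of these genes. The order of the compounds between these ends varied. Rapamycin was second to the control for C1qa, C1qb and Cd5l, TM5614 for C1qc and metformin for Vsig4. Differences between neighbours in these orders could not be tested.

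Per kilobase of exon, the control levels ran from 216 (C1qa), 214 (Cd5l) and 177 (C1qb) over 139 (Clec4f), 136 (Marco) and 103 (C1qc) to 50.6 (Vsig4), 32.1 (Csf1r) and 30.1 (Emr1). The growth factor receptor Csf1r and Emr1 stood at the end of this order, and C1qa and Cd5l at its head. Under caloric restriction C1qa led with 124 and Emr1 was last with 12.6, Marco being next to last with 16.6. Exon lengths are those of all annotated transcripts together, so that levels of genes with many isoforms are understated on this scale.

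No marker passed under a compound. Under TM5614 none of 7 markers with an adjusted p passed, where 3.96% of 10834 genes did, and the median log2 fold change of the 8 was -0.28. Under rapamycin none of 7 passed, where 1.39% of 10369 genes did, and the median was -0.24. Under metformin none of 6 passed, where 0.245% of 7350 genes did, and the median was -0.34; Vsig4 and Marco had no adjusted p. These counts are of the DESeq2 calls per the authors' deposited table, which holds no unadjusted p to count by. Fold changes below 0 were held by 7, 6 and 7 of the 8 markers, in the same order, but the 4 comparisons share the control, so that a high control mean lowers all of them at once. At the shares of genes called under all 3 compounds, a count of 0 among so few markers says little. The differences between interventions were not tested.

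Of 14 other genes that Kupffer cells express, 1 fell under caloric restriction and 1 rose, and 12 did not pass. Of all genes with an adjusted p, 9.24% fell and 9.74% rose in that comparison, and 1.39% passed under rapamycin. The counts of this list, 1 of 14 each way, are near the shares under caloric restriction. The same shares stand beside the counts of the lists below. Folr2, a folate receptor of resident macrophages, fell from 42.6 to 20.0 normalized counts per the authors' deposited table (-1.11 on the log2 scale, adjusted p = 0.00899). Hmox1, the haem oxygenase that breaks down haem and is induced by stress in many cells, rose from 178 to 2514 per the authors' deposited table (3.82, adjusted p = 0.00158), and had 952 under rapamycin (adjusted p = 0.252). The median of the 13 members with a mean of at least 10 was 0.03. Timd4, a receptor for dying cells on long-lived Kupffer cells, had 36.1 in the control and 14.8 under caloric restriction per the authors' deposited table (-1.30, adjusted p = 0.0511). Cd163, the haemoglobin scavenger receptor, had 59.8 and 78.5 per the authors' deposited table (0.39, adjusted p = 0.465).

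Several abundant members of that list did not pass. The iron exporter Slc40a1 had 1104 normalized counts in the control and 1515 under caloric restriction per the authors' deposited table (adjusted p = 0.133). The nuclear receptor LXRα, Nr1h3, had 603 and 516 (adjusted p = 0.130), the mannose receptor Mrc1 238 and 208 (adjusted p = 0.617) and Id3 347 and 460 (adjusted p = 0.742) per the authors' deposited table. Hepatocytes or endothelial cells also express all 4. Fcna, a less abundant member, had 203 in the control and 209 under caloric restriction (adjusted p = 0.940) per the authors' deposited table. Clec1b had 38.3 and 42.4 (adjusted p = 0.822) per the authors' deposited table. Of the 13 members with a mean of at least 10, 6 had a fold change below 0 under caloric restriction. Under TM5614, rapamycin and metformin none of the 14 genes passed, with no adjusted p for 1, 1 and 8.

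Of 20 general macrophage genes 4 fell under caloric restriction and 16 did not pass (median -0.50). Mpeg1, a pore-forming protein of phagocytes, fell from 441 to 213 normalized counts per the authors' deposited table (-1.05, adjusted p = 1.36e-05). Sirpa, the receptor for CD47, fell from 109 to 50.5 per the authors' deposited table (-1.12, adjusted p = 1.44e-04). Sfpi1, the gene of PU.1, fell from 36.7 to 14.5 (-1.35, adjusted p = 0.0160) and the lysosomal protease gene Ctss from 190 to 113 (-0.76, adjusted p = 0.0411) per the authors' deposited table. Among the abundant members that did not pass, Ctsb had 4777 and 4811, Cd74 447 and 361 and Lgmn 380 and 287 in the control and under caloric restriction per the authors' deposited table. Sirpa also fell under rapamycin, to 56.3 (-0.96, adjusted p = 0.0186, per the authors' deposited table), the 1 of 18 macrophage genes with an adjusted p that passed there. None of 19 passed under TM5614 and none of 9 under metformin.

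**Figure D4:**
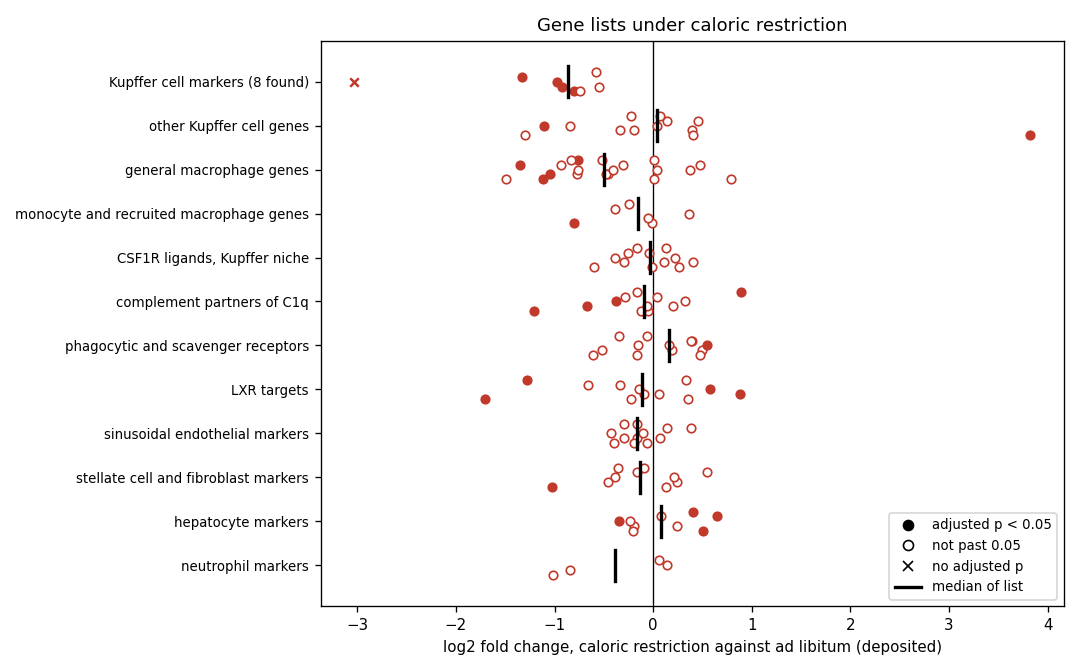
Deposited log2 fold changes under caloric restriction against the control (x axis) for each list (rows) that has at least 4 genes averaging 10 or more, these genes being plotted; filled points have an adjusted p under 0.05, open points do not, the cross (Marco) has none, and the black bar is the median. The median of the Kupffer cell markers, -0.86, lies lowest, followed by the general macrophage genes at -0.50, and the far point at 3.82 is Hmox1. The lists were chosen with results of these data known, and the other Kupffer cell genes have a median of 0.03.

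The growth factors of Kupffer cells and the genes that maintain them did not pass. None of the 13 genes of that list passed in any of the 4 comparisons, with no adjusted p for 1 under TM5614, 2 under rapamycin and 8 under metformin (median under caloric restriction -0.03). Of all genes with an adjusted p, 9.24% fell and 9.74% rose under caloric restriction. Under TM5614, rapamycin and metformin 3.96%, 1.39% and 0.245% passed, so a count of 0 under the compounds says little. Csf1, a ligand of Csf1r, had 64.4 normalized counts in the control and 63.6 under caloric restriction per the authors' deposited table (adjusted p = 0.976), and Il34 had 13.6 and 17.9 (adjusted p = 0.541). The abundant members had, in the control and under caloric restriction per the authors' deposited table, 3690 and 3978 normalized counts for Rxra, 271 and 316 for Smad4 and 127 and 123 for Rbpj. The endothelial co-receptor Eng had 399 and 324 per the authors' deposited table (adjusted p = 0.183).

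The partners of C1q in the complement cascade, many of which hepatocytes make, had called genes in both directions under caloric restriction. Of 13 genes found, 3 fell, 1 rose and 9 did not pass under caloric restriction (median -0.09). The proteases that bind C1q, C1ra and C1s (now C1s1), had 2607 and 3815 normalized counts in the control and 2516 and 3650 under caloric restriction per the authors' deposited table (adjusted p = 0.814 and 0.698). C3, the central component, rose from 48095 to 88998 per the authors' deposited table (0.89, adjusted p = 4.67e-10). Those that fell include the inhibitor C4bp (-0.67, adjusted p = 3.85e-06) and Calr (-1.21, adjusted p = 2.52e-15), a chaperone that also binds C1q, per the authors' deposited table. None passed under a compound.

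Of 14 phagocytic and scavenger receptors, Scarb1, the HDL receptor, rose under caloric restriction from 1115 to 1624 normalized counts per the authors' deposited table (adjusted p = 3.35e-04), and 13 did not pass. Under rapamycin Cd36 rose (0.70, adjusted p = 0.0433) and Stab1 fell (-0.72, adjusted p = 0.00756) per the authors' deposited table. Cd5l is a known target of LXR in macrophages, and of 12 genes of LXR or its targets 2 rose (Abcg5 and Abcg8, at 0.88 and 0.57 per the authors' deposited table) and 2 fell (Pltp and Scd1, at -1.70 and -1.28 per the authors' deposited table) under caloric restriction. Pltp (1.17, adjusted p = 0.0126) and Scd1 (0.84, adjusted p = 0.0433) rose under rapamycin per the authors' deposited table. Hepatocytes express these lipid genes at high levels, so the list does not report on macrophages alone.

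Markers of the other cells of the liver were read beside these results. Of 12 sinusoidal endothelial markers none passed under caloric restriction (median -0.17; summed level 2594 normalized counts, 2856 in the control), whereas under rapamycin Stab1 and Stab2 (-0.90, adjusted p = 0.0293, per the authors' deposited table) fell and the median was -0.61. Of 10 stellate cell and fibroblast markers, Lrat fell under caloric restriction (-1.03, adjusted p = 0.0260) and Lum under rapamycin (-0.95, adjusted p = 0.0469) per the authors' deposited table. Of 9 hepatocyte markers found, Alb (0.50), Hnf4a (0.65) and Apob (0.40) rose and Ttr (-0.34) fell under caloric restriction per the authors' deposited table, and the median was 0.08. Their summed level ranged from 826727 under rapamycin to 1133430 under caloric restriction, so Alb and the C1q genes moved in opposite directions in the latter group. The part of a changed hepatocyte share in the lower markers was not tested; taken against the median of the hepatocyte markers, the median of the 8 markers was -0.94 instead of -0.86.

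Markers of blood-borne cells and of cholangiocytes were read in the same way. Of 9 monocyte and recruited macrophage genes found (of 12 listed), Cd9, which many cells express, fell under caloric restriction (-0.80, adjusted p = 5.53e-04, per the authors' deposited table) while 7 others did not pass and 1 had no adjusted p. The summed level of that list was 372 to 547 normalized counts, most of it from Spp1 (207 in the control per the authors' deposited table) and Cd9 (193), and none of its genes passed under a compound. The 4 T and NK cell markers found (of 8) summed to 8.81 to 16.0 and have no adjusted p. The 7 B and plasma cell markers summed to 54.0 to 76.1, the 4 neutrophil markers (of 7) to 62.8 to 170 and the 3 dendritic cell markers (of 7) to 20.9 to 33.8, and none of those with an adjusted p passed in any comparison. The 4 cholangiocyte markers found (of 5) summed to 82.2 to 238, and none of those with an adjusted p passed. No marker of these lists that was found is listed at 0 in any group.

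The genes most like the markers in their pattern were found by the distance between profiles of log2 group means over the 5 groups, each centred on its own mean. Of 11175 genes, Sfpi1 was nearest to the mean profile of the 8 markers (distance 0.151, the median gene having 0.884). The next were Rfc5 (0.174), a subunit of the clamp loader in DNA replication, Mettl10 (0.183), Trim13 (0.197) and Cdk5rap2 (0.199). Marco itself lay 1.98 from that mean and weighs on it. With Marco left out of the profile, the nearest were Appl1 (0.0880), Prmt10 (0.0949), Hk3 (0.103), 1300002K09Rik (0.104), Rbms3 (0.109) and BC057079 (0.113), so that 0 of the 6 nearest genes of each profile were shared. Hk3 encodes a hexokinase of myeloid cells, with 22.1 normalized counts in the control and 11.2 under caloric restriction per the authors' deposited table (adjusted p = 0.119). C1qa, C1qb and C1qc lay 0.0947 to 0.131 from the profile without Marco, and Cd5l, with its larger changes, 0.385.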

How the data were processed

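RNA of whole mouse liver was sequenced after poly(A) selection, per the labels' protocols. Reads were aligned with HISAT2 2.0.5 to mm10, per the submitters' processing notes. How reads were counted per gene, with which annotation and with regard to strand or not, is not given in the sources used here. No batch is named by the labels. The authors' deposited table, made with DESeq2 per its name, gives for each group a normalized signal (a mean of counts per gene after division by size factors) and, per the file headers, a log2 fold change and an adjusted p-value against the control. A second table has 18 columns of normalized values whose names match no label. They were not used, and the limma fits per library planned for them, with or without a replicate block, were not run.

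The 9 markers and the 16 gene lists, the markers among them, were chosen with earlier results of these data known. A gene was called at a deposited adjusted p under 0.05. Named beside the markers are up to 6 called genes per list and 4 abundant uncalled genes of 3 lists. Timd4, Cd163, Fcna, Clec1b, Csf1, Il34, C1ra, C1s, Amy2a5, Ctrb1 and Cela2a were named after their values were seen. A few genes that this rule takes are counted but not reported by name here. Older symbols were matched through RefSeq synonyms, and exon lengths and coordinates come from GENCODE vM21. Computation used Python 3.11.15 and pandas 2.3.3; the profile distance, on log2(mean + 1), was tested on simulated data. Nothing says how the libraries relate to separate mice beyond their labels, so the deposited p-values measure the spread between these libraries.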

Additional observations from a re-analysis of the deposited data

How the results depend on the processing

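No paired analysis was possible because the columns of values per library carry no label of any sample, and for the same reason neither limma nor the fits that leave out a replicate were run. At an adjusted p under 0.01, 2 of the 8 markers remained called under caloric restriction in place of 4 (C1qa and C1qc), and at 0.1 there were 6, Clec4f and Vsig4 being added. Over all genes the calls at 0.01 were 1396 in place of 2232 under caloric restriction, 158 in place of 429 under TM5614, 44 in place of 144 under rapamycin and 9 in place of 18 under metformin. At 0.1 metformin had 34 such calls, rapamycin 251, TM5614 775 and caloric restriction 2894. The log2 fold changes of the markers and Emr1 were recomputed from the group means with 1 added, centred on the median of all genes, as shares of the summed means without Rn45s and Lars2, and centred on hepatocyte markers. No value moved by 0.1 or more, and the sign changed only for Clec4f under metformin (0.01, and -0.01 and -0.06 on the last 2 scales). Centring and shares mainly take 1 value per comparison from all genes, at most 0.0967 in size (shares, caloric restriction). That their shifts stayed below 0.1 was thus set by those values and does not bear on the spread between libraries. The median under caloric restriction ranged from -0.85 to -0.95 over these settings. It was -0.80 without Marco and -0.92 with Emr1, settings chosen after seeing the data. Group means without values per library limit all statements on error.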

Other observations

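The authors' deposited table also holds log2 fold changes against the control for a compound named TM5441, which is in no label and for which it gives neither a mean nor an adjusted p. For the markers these were -0.25 (C1qa), -0.38 (C1qb), -0.35 (C1qc), -0.60 (Cd5l), 0.15 (Clec4f), -0.30 (Vsig4), -0.26 (Csf1r), -2.89 (Marco) and -1.06 (Emr1) per the authors' deposited table. The value of Marco is of the size of its values under the 4 labelled interventions, and all are taken against a control of the same name.

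The other 9 genes of at least the mean of Marco that have no adjusted p in any comparison were Ripk2, Mup16, Fosb, Gadd45a, Tnfaip3, Plscr1, Rnd1, Dnajb1 and Gadd45g. None of them had its highest mean in the control per the authors' deposited table. Tnfaip3, an inhibitor of NF-κB signalling, had 727 normalized counts under rapamycin and 22.3 to 47.4 in the other groups, and the immediate early gene Fosb had 657 under caloric restriction and 1.24 to 25.0 in the others, per the authors' deposited table.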
